A study of Mus musculus with 24 samples.

Results

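The mRNA levels of 10 integrin subunits were followed through tissue-resident macrophages (TRMs) of the mouse and through the TRM-like cells (TRM-LCs) grown from the same organs. The genes were chosen by name, as integrin subunits known from macrophages, and with earlier results of these data known. Counts of members set beside shares of all genes are therefore a description. The subunits are 10 of the 45706 genes in the count table. They comprise 6 α subunits (Itgam, Itgal, Itga4, Itga6, Itga9 and Itgav) and 4 β subunits (Itgb2, Itgb1, Itgb5 and Itgb7). RNA sequencing covered 24 libraries in 8 groups of 3. In 4 groups the cells were sorted fresh from the animal (ex vivo), namely microglia (MG) from brain, Kupffer cells (KC) from liver, peritoneal macrophages (PM) and alveolar macrophages (AM) from lung. In the other 4 groups, cell suspensions of the same organs were cultured for 14 days without sorting (in vitro), giving MG-LCs, KC-LCs, PM-LCs and AM-LCs. All mice carried the label C57BL/6J, female, 8-12 weeks of age, with no transgene, knockout or drug named for any group. MG-LCs received the growth factors M-CSF and IL-34, KC- and PM-LCs M-CSF and AM-LCs GM-CSF. The first 3 cultures grew at 3% oxygen with high glucose, and AM-LCs at atmospheric oxygen without added glucose. KC- and PM-LCs thus shared growth factor, oxygen and glucose, whereas for MG-LCs (IL-34) and AM-LCs organ and medium cannot be told apart. Livers were digested with enzymes and peritoneal cells came from a lavage, so organ and preparation cannot be told apart between KC- and PM-LCs. Per the methods of the study, a flask held cells pooled from 3 brains, lungs or peritoneal cavities or from 1 liver. The labels do not say which libraries share animals, so p-values measure only the spread between these libraries.

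An integrin is a pair of 1 α and 1 β chain that spans the plasma membrane and ties the cytoskeleton to matrix or to proteins on other cells. The leukocyte chain β2 (Itgb2, CD18) pairs with αM (Itgam, CD11b; the complement receptor Mac-1), αL (Itgal, CD11a; LFA-1), αX (Itgax, CD11c) and αD (Itgad). β1 pairs with many α chains, among them the VCAM-1 and fibronectin receptor α4, the laminin receptor α6 and the tenascin and osteopontin receptor α9. β7 pairs with α4 or αE, and β5 with αv only, as a vitronectin receptor that also takes part in the uptake of apoptotic cells. In macrophages integrins serve adhesion, migration, phagocytosis and the activation of latent TGF-β.

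Total counts per library ranged from 29569486 to 47105111 reads. Levels are given as CPM (counts scaled to library size, TMM-normalized over all 24 libraries), and 3 reads corresponded to 0.0661 to 0.115 CPM. This floor covers counting error only. Microglial, Kupffer cell, peritoneal and alveolar marker sums were each highest in the sorted group of that name. They were lower in the matching culture. The microglial sum was 23553 CPM or more in MG and 368 to 2438 CPM in MG-LCs. The Kupffer cell sum was 15969 CPM or more in KC and 17.3 to 94.1 CPM in KC-LCs. For PM and PM-LCs the peritoneal sum was 21919 CPM or more and 92.7 to 161 CPM. For AM and AM-LCs the alveolar sum was 4634 CPM or more and 488 to 1600 CPM. Among the cultures, only the peritoneal sum set its group apart, at 41.1 CPM or less outside PM-LCs. The Kupffer cell sum was higher in MG-LCs (215 to 2234 CPM) and PM-LCs (144 to 827 CPM) than in KC-LCs. The alveolar sum of PM-LCs (692 to 1492 CPM) lay within the range of AM-LCs. The microglial sum of KC-LCs (330 to 454 CPM) overlapped that of MG-LCs. All 8 general macrophage markers were tested in every population, and their summed level was 13762 CPM or more in each library. A few libraries stood apart. The sum of 8 fibroblast and mesothelium markers was 30979 CPM in MG-LC library 1 against 7.39 and 1012 CPM in MG-LC libraries 2 and 3, 2209 CPM in PM-LC library 2, 1668 CPM in AM-LC library 3 and 23.8 CPM or less in every sorted library. KC library 1 held 15969 CPM of 6 Kupffer cell markers, against 27316 and 28251 CPM in the other two KC libraries, and 229 CPM of 8 T and NK cell markers, against 30.6 and 18.9 CPM. The sum of 8 granulocyte markers was 129, 87.6 and 2.03 CPM in KC libraries 1, 2 and 3. PM-LC library 1 held 96.8 CPM of 8 B cell markers, against 1.41 and 1.09 CPM in PM-LC libraries 2 and 3. The sum of 8 epithelial markers was 1205 to 1371 CPM in AM and 90.8 to 221 CPM in AM-LCs. The part of these cells in the subunit levels was not tested. In bulk RNA, fewer cells of a type and less RNA per cell cannot be told apart.

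Among the 4 sorted populations, the 10 subunits gave 60 pairwise comparisons, of which 53 passed an adjusted p of 0.05 in the quasi-likelihood test of edgeR (Benjamini-Hochberg over all genes tested). The share of all genes that passed was 42.2% for MG against KC, 44.7% for MG against PM, 54.7% for MG against AM, 35.8% for KC against PM, 43.5% for KC against AM and 36.7% for PM against AM. Of the members, 8, 10, 9, 10, 8 and 8 passed in the same order. Itgam, Itga4, Itga6, Itga9, Itgb5 and Itgb7 differed in each of the 6 pairs. The calls lost most often were Itga9 in MG against PM, which passed in 10 of 19 alternatives, Itgb7 in KC against PM (14 of 19) and Itgav in KC against PM (16 of 19). The 7 pairs that missed the threshold were Itgb1 between MG, KC and AM in each combination, Itgav between MG and KC and between PM and AM, Itgal between KC and AM, and Itgb2 between PM and AM. Leaving out 1 library at a time gave 50 to 57 calls, with 57 when KC library 1 was left out. The share of all genes in those fits is not given here.

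**Figure D1:**
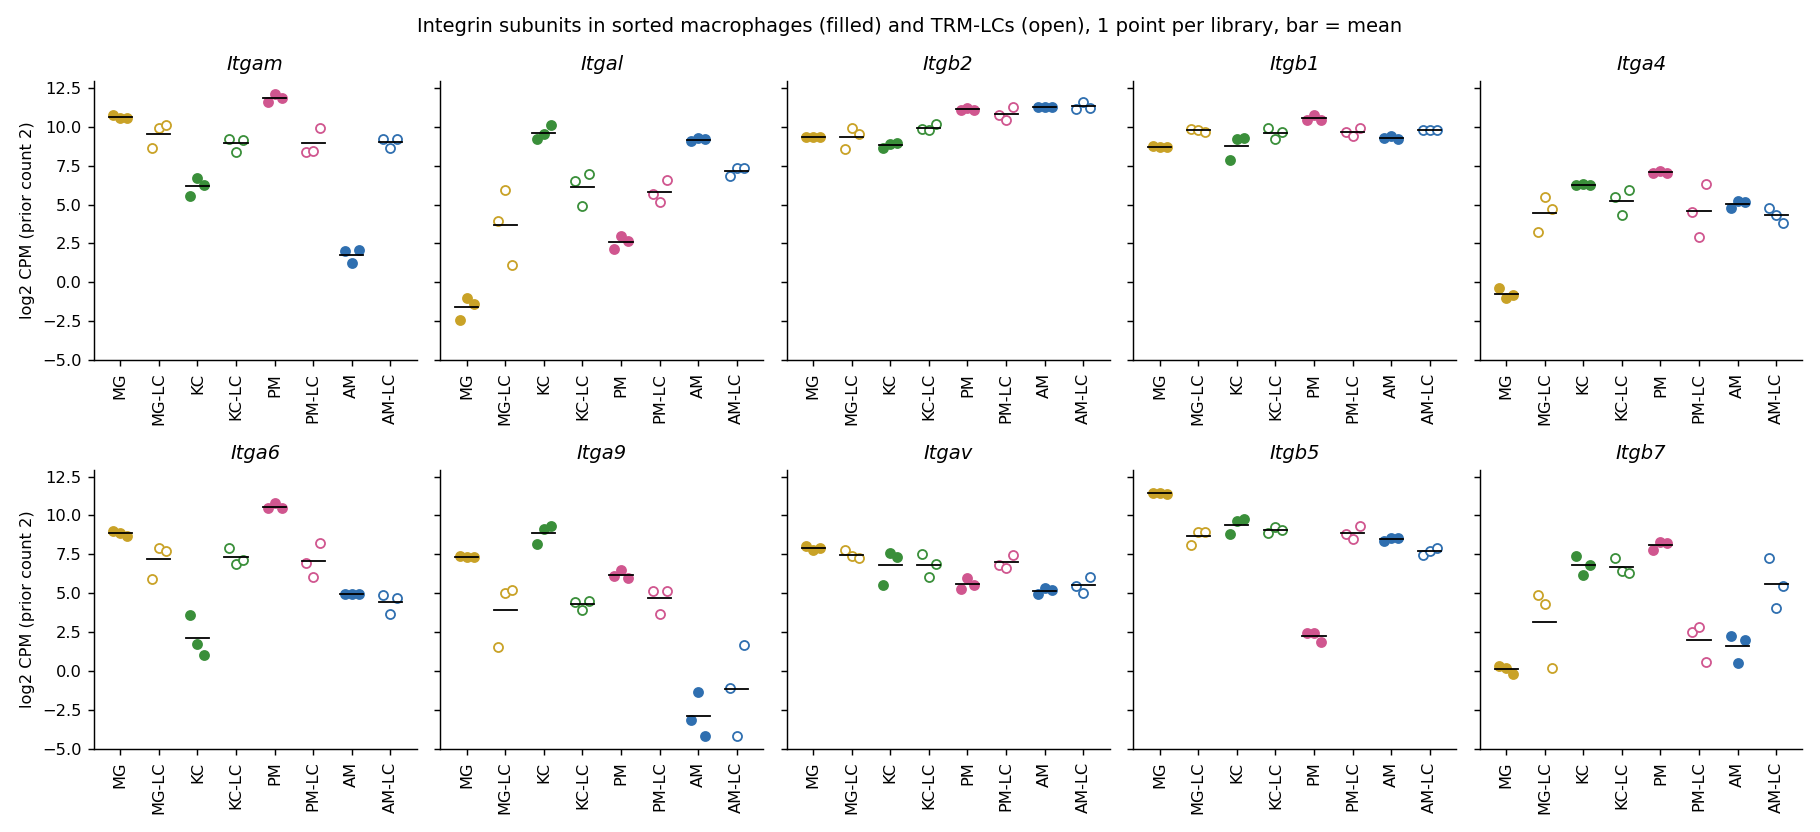
Log2 CPM (prior count 2, y axis) of each integrin subunit in the 8 groups (x axis), with 1 point per library, filled for sorted cells and open for TRM-LCs, and a bar at the mean of the 3 libraries. Itgam, Itgal, Itga4, Itga6, Itga9, Itgb5 and Itgb7 spread widely between sorted populations, while the open points of Itgam, Itgb1 and Itgb5 lie near each other.

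Itgb2 (ENSMUSG00000000290, chr10:77530252-77565708, plus strand, GRCm38), the shared chain of the leukocyte integrins, fell into a high and a low pair of sorted populations. Its level was 2479, 2483 and 2479 CPM in AM and 2137, 2395 and 2114 CPM in PM. In MG it was 637, 635 and 653 CPM, and in KC 398, 480 and 505 CPM. No library of the low pair reached the high pair, and AM and PM missed the threshold against each other (PM minus AM, log2 difference -0.15 ± 0.13 SE, adjusted p = 0.413 by edgeR's quasi-likelihood test). In culture Itgb2 lay at 382 to 974 CPM in MG-LCs, 885 to 1154 CPM in KC-LCs, 1402 to 2492 CPM in PM-LCs and 2232 to 3139 CPM in AM-LCs. Of the 4 populations it differed between sorted and cultured cells in KC, with a log2 difference (sorted minus cultured) of -1.07 ± 0.25 SE and an adjusted p of 0.0152 by edgeR's quasi-likelihood test. The KC call was lost without KC-LC library 3 (adjusted p = 0.0542, edgeR's quasi-likelihood test). Itgb2 passed in MG when MG-LC library 1 was left out (-0.47, 0.0441) and in PM when PM-LC library 3 was left out (0.54, 0.0421), both by edgeR's quasi-likelihood test.

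Itgam (ENSMUSG00000030786, chr7:128062640-128118491, plus strand, GRCm38) encodes CD11b, which was also stained to sort these cells. Sorted MG were gated as CD45low CD11b+, KC and PM as CD11b+ and AM as CD11b low, so that its order among sorted cells is not independent of the gate. In PM Itgam was at 3024, 4458 and 3654 CPM and in MG at 1757, 1537 and 1526 CPM. KC held 47, 104 and 76.3 CPM, and AM 3.95, 2.30 and 4.20 CPM (132, 90 and 169 reads). The order was PM, MG, KC and AM with no overlap and all 6 pairs called. The distance from AM to PM was 10.07 ± 0.42 SE on the log2 scale. The 250 bases upstream of its RefSeq start site are shown because Itgam had the widest gap between PM and AM of the 10 subunits. In capitals are matches to the core GAGGAA or its reverse complement TTCCTC, known as the PU box that the myeloid transcription factor PU.1 binds. The window lies at chr7:128062390-128062639 (plus strand, GRCm38.p6).
Itgam: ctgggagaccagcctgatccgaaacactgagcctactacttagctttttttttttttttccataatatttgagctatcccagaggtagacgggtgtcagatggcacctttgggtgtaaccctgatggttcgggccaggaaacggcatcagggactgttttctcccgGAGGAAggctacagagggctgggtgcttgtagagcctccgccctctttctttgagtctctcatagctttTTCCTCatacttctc
It held 2 matches, at -84 to -79 as printed and at -15 to -10 as the reverse complement, counted from the start site. Of 32851 RefSeq promoter windows of 250 bases, 23.3% held at least 1 match, and no binding was measured here.

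In culture the Itgam levels of the 4 populations ran into each other. MG-LCs were at 390, 947 and 1089 CPM, KC-LCs at 599, 340 and 571 CPM, PM-LCs at 329, 351 and 988 CPM and AM-LCs at 601, 402 and 600 CPM. Each pair of cultured groups overlapped, and none of the 6 pairs passed (smallest adjusted p = 0.466, edgeR's quasi-likelihood test). Itgam was lower in sorted than in cultured AM by a log2 difference of -7.28 ± 0.34 SE (155-fold, adjusted p = 3.69e-05, edgeR's quasi-likelihood test) and in sorted than in cultured KC by -2.70 ± 0.38 SE (adjusted p = 0.00233, edgeR's quasi-likelihood test). It was higher in sorted PM than in PM-LCs, at 2.73 ± 0.47 SE (adjusted p = 0.00546, edgeR's quasi-likelihood test). Without PM-LC library 3 this difference was 3.48. In MG the 3 sorted libraries lay above the 3 cultured ones, but the difference of 0.95 ± 0.43 SE missed the threshold (adjusted p = 0.116, edgeR's quasi-likelihood test). It was 0.61 and passed without MG-LC library 1 (adjusted p = 0.0215, edgeR's quasi-likelihood test), the library with the most fibroblast marker RNA, and it also passed in DESeq2 (adjusted p = 0.0286). A gene model of the same strand, Gm49368, overlaps Itgam exons and is not in the count table, and how reads shared by both were counted is not given in the sources used here.

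Itgal (ENSMUSG00000030830, chr7:127296260-127335138, plus strand, GRCm38), the α chain of the ICAM receptor LFA-1, had nearly the opposite distribution. KC held 585, 733 and 1107 CPM and AM 532, 622 and 586 CPM, and these groups overlapped. PM were at 4.28, 7.94 and 6.37 CPM and MG at 0.132, 0.433 and 0.334 CPM. All pairs except KC against AM were called, and the log2 difference of MG minus KC was -11.46 ± 0.48 SE. In culture the sorted order was compressed: Itgal was at 15.4, 60.4 and 2.09 CPM in MG-LCs, 92.5, 30.6 and 126 CPM in KC-LCs, 52.1, 36.2 and 95.8 CPM in PM-LCs and 114, 166 and 163 CPM in AM-LCs. It was the 1 subunit of the 10 called in all 4 populations. The change ran downward in culture in KC (log2 difference sorted minus cultured 3.32 ± 0.55 SE) and AM (1.96 ± 0.19 SE) and upward in PM (-3.31 ± 0.44 SE) and MG (-6.48 ± 1.37 SE), with adjusted p of 0.00437, 0.000287, 0.00172 and 0.0117 in edgeR's quasi-likelihood test. The MG call was lost without any 1 of the MG libraries 1, 2 and 3 (adjusted p = 0.0618, 0.0561 and 0.0624, edgeR's quasi-likelihood test), and in limma-voom (0.124), and the difference was -4.91 without MG-LC library 2. In KC library 1, Itgal was the lowest of the KC libraries. That library carried the most T and NK cell marker RNA and the least Kupffer cell marker RNA of its group. The part of either in Itgal was not tested.

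Itgb1 (ENSMUSG00000025809, chr8:128685654-128733200, plus strand, GRCm38), the most widely paired β chain, varied least between the sorted populations of the 10 subunits, by 3.53-fold between the highest and lowest mean. Levels were 1375, 1729 and 1360 CPM in PM, 630, 666 and 588 CPM in AM, 236, 588 and 628 CPM in KC and 426, 420 and 417 CPM in MG. PM lay above the other 3 groups, whose differences from each other missed the threshold. In culture the 4 means lay between 785 and 886 CPM. Itgb1 was higher in MG-LCs than in MG (sorted minus cultured, -1.09 ± 0.22 SE, adjusted p = 0.0102, edgeR's quasi-likelihood test), and the MG-LC libraries held 921, 881 and 805 CPM. It was also higher in AM-LCs than in AM, by a smaller step (-0.51 ± 0.11 SE, adjusted p = 0.00845, edgeR's quasi-likelihood test), and lower in PM-LCs than in PM (0.86 ± 0.20 SE, adjusted p = 0.0170, edgeR's quasi-likelihood test). The MG call was lost without any 1 MG library (adjusted p = 0.0692, 0.0720 and 0.0669 without library 1, 2 and 3, edgeR's quasi-likelihood test), and the PM call without PM library 2 or PM-LC library 1 (0.0725 and 0.0557, edgeR's quasi-likelihood test). With all 24 libraries in 1 model, edgeR lost the AM call (adjusted p = 0.170) and called KC (-0.70, 0.0456).

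Itga4 (ENSMUSG00000027009, chr2:79255426-79333123, plus strand, GRCm38), which pairs with β1 or β7, was nearly missing from sorted MG. MG held 0.727, 0.433 and 0.525 CPM, against 27.6, 36.8 and 35.7 CPM in AM, 76.7, 79.6 and 75.3 CPM in KC and 128, 139 and 133 CPM in PM. These 4 groups did not overlap and all pairs were called, although edgeR with all 24 libraries in 1 model lost KC against PM (adjusted p = 0.353) and KC against AM (0.130). In MG-LCs Itga4 reached 9.32, 45.6 and 26.0 CPM, all above sorted MG (-5.62 ± 0.69 SE, adjusted p = 0.00238, edgeR's quasi-likelihood test), and the difference was -4.99 without MG-LC library 2. KC-LCs (44.2, 19.8 and 59.9 CPM) and PM-LCs (22.5, 7.53 and 79.1 CPM) lay below their sorted groups without overlap, but both differences missed the threshold (adjusted p = 0.0934 and 0.100, edgeR's quasi-likelihood test). Without PM-LC library 3 the PM difference was 3.19 and passed (adjusted p = 0.00387, edgeR's quasi-likelihood test), and it also passed in limma-voom (2.45, 0.0272), in DESeq2 (0.0149) and in edgeR with all 24 libraries (0.0296). The KC difference passed in DESeq2 (0.0489). In AM the difference of 0.70 ± 0.25 SE just passed (adjusted p = 0.0493, edgeR's quasi-likelihood test), and the call was lost without any 1 library except AM-LC library 1 (0.0586 to 0.146, edgeR's quasi-likelihood test), with RLE size factors (0.0548), without a filter on low counts (0.0512) and with all 24 libraries in 1 model (0.396). Reads were not stranded, and 1619 bases of Cerkl exons lie opposite Itga4 exons, so reads from both cannot be told apart there.

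Itgb7 (ENSMUSG00000001281, chr15:102215995-102231944, minus strand, GRCm38), the other partner of α4, was likewise lowest in sorted MG, with 1.21, 1.08 and 0.812 CPM. AM held 4.78, 1.38 and 3.86 CPM, KC 169, 71.9 and 114 CPM and PM 218, 317 and 305 CPM, without overlap between groups. The highest KC value was that of KC library 1, which carried the most T and NK cell marker RNA. The part of those cells in Itgb7 was not tested. The KC against PM call (adjusted p = 0.0277, edgeR's quasi-likelihood test) was lost without KC library 2 or 3 or PM library 2 or 3 (0.0588 to 0.0798, same test) and with all 24 libraries in 1 model (0.284), and MG against AM was lost in that model (0.128) and in limma-voom (0.194). PM-LCs were at 5.65, 7.16 and 1.42 CPM, far under sorted PM (5.89 ± 0.61 SE, adjusted p = 0.000610, edgeR's quasi-likelihood test). In AM-LCs Itgb7 was higher than in AM, with 151, 16.7 and 44.0 CPM (-4.40 ± 0.88 SE, adjusted p = 0.00564, edgeR's quasi-likelihood test), and the difference was -3.24 without AM-LC library 1. MG-LC libraries held 29.6, 19.4 and 1.09 CPM, the last within the range of sorted MG, so that the groups overlapped although the difference was called (-4.06 ± 1.11 SE, adjusted p = 0.0269, edgeR's quasi-likelihood test). That call was lost without any 1 MG library (0.0999, 0.104 and 0.108, edgeR's quasi-likelihood test) or MG-LC library 2 (0.0563) and in limma-voom (-3.18, 0.209), and the difference was -3.35 without MG-LC library 1. KC-LCs (157, 86.5 and 78.0 CPM) overlapped KC. Over all 24 libraries, Itgb7 and Itga4 had a Pearson r of 0.65 in log2 CPM, given as a description since libraries of 1 group are not independent.

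Itga6 (ENSMUSG00000027111, chr2:71745616-71858416, plus strand, GRCm38), a laminin receptor chain, was highest in sorted PM, at 1402, 1749 and 1406 CPM. MG held 521, 459 and 412 CPM, AM 30.8, 31.3 and 31.5 CPM and KC 12.2, 3.22 and 2.03 CPM. The 4 groups did not overlap, and the highest KC value came from KC library 1. In culture this order was lost among 3 populations, with 59.4, 241 and 213 CPM in MG-LCs, 242, 117 and 140 CPM in KC-LCs and 123, 65.7 and 298 CPM in PM-LCs. AM-LCs stayed at 29.3, 12.9 and 25.5 CPM, below each of the others and called against all 3 (log2 differences of 2.81 to 2.90 in favour of the other group). These calls passed in 15 (MG-LCs), 14 (KC-LCs) and 12 (PM-LCs) of 20 alternatives, and all 3 were lost without AM-LC library 1, 2 or 3 (adjusted p 0.0658 to 0.143, edgeR's quasi-likelihood test). Itga6 was higher in PM than in PM-LCs (3.22 ± 0.54 SE, adjusted p = 0.00492, edgeR's quasi-likelihood test; 4.05 without PM-LC library 3) and lower in KC than in KC-LCs (-4.79 ± 0.74 SE, adjusted p = 0.00346, edgeR's quasi-likelihood test). Without KC library 1 the KC difference was -5.96. In MG it was 1.40 ± 0.51 SE and missed the threshold (adjusted p = 0.0634, edgeR's quasi-likelihood test). It was 0.98 without MG-LC library 1 (adjusted p = 0.00392, edgeR's quasi-likelihood test), and passed in DESeq2 (0.0115).

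Itga9 (ENSMUSG00000039115, chr9:118606690-118901003, plus strand, GRCm38) was highest in KC among the sorted cells, at 282, 551 and 654 CPM. MG held 168, 159 and 163 CPM and PM 68.4, 90.1 and 64.3 CPM. In AM the 3 libraries had 2, 13 and 0 reads, the last allowing up to 0.0746 CPM. All 6 sorted pairs were called, and the order KC, MG, PM and AM had no overlap. MG against PM passed narrowly (MG minus PM, 1.08 ± 0.41 SE, adjusted p = 0.0476, edgeR's quasi-likelihood test), and the call was lost without any 1 MG or PM library (0.0696 to 0.145, same test), without AM library 1 (0.0620) and with all 24 libraries in 1 model (0.333). That model also lost MG against KC (0.169, edgeR). Itga9 was lower in culture in the 3 populations that held it, with 21.9, 15.0 and 22.6 CPM in KC-LCs (4.68 ± 0.41 SE, adjusted p = 0.00045, edgeR's quasi-likelihood test), 2.82, 32.8 and 36.4 CPM in MG-LCs (2.73 ± 0.84 SE, 0.0390, same test) and 35.5, 12.7 and 35.8 CPM in PM-LCs (1.41 ± 0.40 SE, 0.0349, same test). The KC call held in all 13 alternatives. The MG call was lost in 5 of the 6 fits that left out 1 library (all but MG-LC library 1; adjusted p 0.0577 to 0.105) and the PM call without any 1 PM library or PM-LC library 1 (0.0595 to 0.120), all by edgeR's quasi-likelihood test. With all 24 libraries in 1 model the PM call was lost too (0.238, edgeR), and limma-voom gave 3.41 in MG. In AM-LCs the libraries had 13, 0 and 89 reads and overlapped AM.

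Itgb5 (ENSMUSG00000022817, chr16:33829665-33949338, plus strand, GRCm38) was the β chain with the widest range between sorted populations. MG held 2736, 2789 and 2642 CPM, KC 441, 797 and 886 CPM, AM 331, 370 and 370 CPM and PM 5.45, 5.29 and 3.58 CPM. No groups overlapped, and MG exceeded PM by 9.10 ± 0.34 SE on the log2 scale. Itgam was highest in PM, where Itgb5 was lowest, but MG had the highest Itgb5 and the second highest Itgam. Over the 24 libraries their Pearson r was -0.28 in log2 CPM, given as a description. The 250 bases upstream of the RefSeq start of Itgb5 (chr16:33829415-33829664, plus strand, GRCm38.p6) are shown beside those of Itgam. They have no capitals since the PU box core was not found in either orientation.
Itgb5: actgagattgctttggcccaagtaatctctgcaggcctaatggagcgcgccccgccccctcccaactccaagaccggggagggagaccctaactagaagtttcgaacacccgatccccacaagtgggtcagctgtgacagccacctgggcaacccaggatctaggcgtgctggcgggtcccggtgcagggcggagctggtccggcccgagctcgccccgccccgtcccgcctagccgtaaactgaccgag
No match says only that these letters are not in this window. Of the 7 subunits with a RefSeq window, Itgam, Itgav and Itgb1 held a match and Itgb5, Itgb7, Itga4 and Itga9 none, beside 23.3% of all windows with a match. The Itga9 window lies 105002 bases from the GENCODE start of the gene, and the bases before that start were not examined.

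In culture Itgb5 had overlapping levels in MG-, KC- and PM-LCs. PM-LCs reached 446, 358 and 626 CPM, MG-LCs 279, 493 and 482 CPM and KC-LCs 469, 608 and 530 CPM. AM-LCs were lower, at 176, 209 and 241 CPM, and called against MG-LCs (adjusted p = 0.0478), KC-LCs (0.0181) and PM-LCs (0.0378, edgeR's quasi-likelihood test). These calls passed in 9, 16 and 12 of 20 alternatives, and all 3 were lost without AM-LC library 1 or 2 or KC-LC library 2 or 3 (0.0589 to 0.172, same test). The difference between PM and PM-LCs was -6.64 ± 0.34 SE (100-fold, adjusted p = 3.87e-05, edgeR's quasi-likelihood test), and between MG and MG-LCs 2.66 ± 0.36 SE in the other direction (adjusted p = 0.00331, edgeR's quasi-likelihood test). AM exceeded AM-LCs by 0.76 ± 0.16 SE (adjusted p = 0.00745, edgeR's quasi-likelihood test), and KC and KC-LCs overlapped. These sorted against cultured calls in MG, PM and AM held in all 13 alternatives.

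Itgav (ENSMUSG00000027087, chr2:83724397-83806916, plus strand, GRCm38), the only α partner of β5, moved far less than Itgb5. Sorted MG held 268, 216 and 238 CPM, KC 45.1, 192 and 162 CPM, PM 38.6, 62.8 and 45.1 CPM and AM 30.8, 40.7 and 37.3 CPM. KC library 1 again was the lowest of its group, within the range of PM. The KC against PM call (adjusted p = 0.0166, edgeR's quasi-likelihood test) was lost without KC library 2 or PM library 1 or 3 (0.0593 to 0.0736, same test). Between sorted and cultured cells it was called in PM, where PM-LCs held 114, 99.6 and 177 CPM (-1.42 ± 0.29 SE, adjusted p = 0.0110, edgeR's quasi-likelihood test). The call was lost without PM library 1 or 3 (0.0517 and 0.0546, edgeR's quasi-likelihood test), and MG passed without MG-LC library 1 (0.52, 0.0205). Exons of Gm13684 lie opposite Itgav exons over 634 bases, where unstranded reads of both cannot be told apart. Per kilobase of exon, Itgb5 was at 766 CPM per kb in MG against 22.4 CPM per kb for Itgav, and at 1.34 against 4.54 CPM per kb in PM.

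Counted by population, 6 of the 10 subunits differed between MG and MG-LCs, where 46.4% of all 14416 genes tested did. Itga9 and Itgb5 were higher in MG, and Itgal, Itgb1, Itga4 and Itgb7 in MG-LCs. In KC 5 of 10 passed against 33.8% of all genes, with Itgal and Itga9 higher in KC and Itgam, Itgb2 and Itga6 higher in KC-LCs. In PM 8 of 10 passed against 28.9%, with Itgam, Itgb1, Itga6, Itga9 and Itgb7 higher in PM and Itgal, Itgav and Itgb5 higher in PM-LCs. In AM 6 of 10 passed against 48.7%, with Itgal, Itga4 and Itgb5 higher in AM and Itgam, Itgb1 and Itgb7 higher in AM-LCs. In all populations both directions were thus present, and no subunit of the 10 was called in the same direction in all 4. The sorted and cultured libraries did not overlap for 7, 6, 9 and 7 members, against 65.4%, 54.1%, 48.8% and 61.7% of all genes. The median log2 difference of the 10 was 0.10, 0.18, 1.14 and -0.24, beside -0.03, 0.01, -0.01 and -0.04 for all genes.

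**Figure D2:**
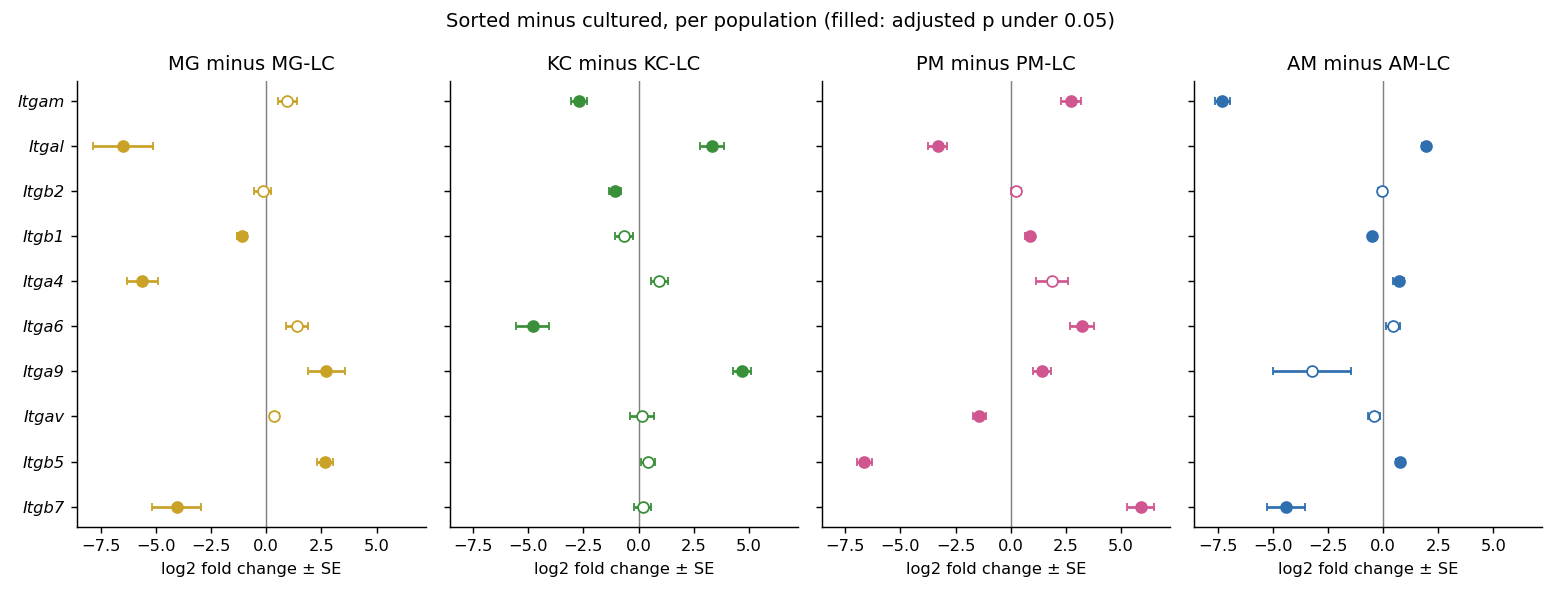
Log2 fold change (x axis, sorted minus cultured, with the standard error as bars) of the 10 subunits (y axis) in each of the 4 populations, from 3 sorted and 3 cultured libraries each. Filled points passed an adjusted p of 0.05, which were 6, 5, 8 and 6 of 10 in MG, KC, PM and AM.

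Of these 25 calls, 15 held in each of 13 alternatives of test, scaling, filter, pairing and left-out library, namely Itga4 and Itgb5 in MG, Itgam, Itgal, Itga6 and Itga9 in KC, Itgam, Itgal, Itga6, Itgb5 and Itgb7 in PM, and Itgam, Itgal, Itgb5 and Itgb7 in AM. The MG count was the least settled. It was 2 without MG library 1, 2 or 3, and 10 without MG-LC library 1, the library with 30979 CPM of fibroblast and mesothelium markers. The part of that RNA in the MG result was not tested beyond this. In PM the count was 6 without any 1 PM library or PM-LC library 1, and 10 without PM-LC library 3. Without PM-LC library 2, which had the most fibroblast and mesothelium RNA of its group, it was 8. The share of all genes called in each of these fits is not given here. These MG and PM counts therefore describe the fits and cannot be read as particular to the subunits.

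Whether a population differed from the other 3 in its change between sorted and cultured cells was tested as an interaction over all 24 libraries. The 4 contrasts share their libraries. Of the 10 subunits, 6, 6, 8 and 5 passed in MG, KC, PM and AM, against 19.8%, 15.4%, 13.2% and 17.1% of all 17408 genes. Itgam, Itgal and Itgb5 were called in all 4 contrasts. Since each contrast subtracts the mean of the other 3 populations, a large change in 1 population moves all 4. Itgb5 was thus called in the KC contrast (1.46) though KC against KC-LCs missed the threshold (0.44). The same held for Itgam in MG (3.41 in the contrast, 0.95 in MG itself). The sorted minus cultured difference of Itgb7 in PM exceeded the mean of the other 3 populations by 8.64 ± 1.17 SE, and that of Itgam by 5.74 ± 0.55 SE. For Itgb5 the contrast was -7.93 ± 0.38 SE in PM and 4.52 ± 0.34 SE in MG, so that the sorted level stood far lower in the first and higher in the second, relative to culture. For Itgam it was -7.59 ± 0.59 SE in AM. Itgb2 passed in KC only, at -1.12 ± 0.31 SE (adjusted p = 0.0205, edgeR's quasi-likelihood test), and was lost without KC-LC library 3 (adjusted p = 0.0675, same test).

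Between cultured populations, 9 of 60 comparisons of the 10 subunits passed in edgeR's quasi-likelihood test, 18 in DESeq2 and 18 in edgeR with all 24 libraries in 1 model. The 9 were 4 for MG-LCs against AM-LCs (Itga6, Itgav, Itgb5 and Itgb2), 3 for KC-LCs against AM-LCs (Itga6, Itgb5 and Itgb2) and 2 for PM-LCs against AM-LCs (Itga6 and Itgb5), where 8.59%, 7.64% and 5.29% of all genes passed. DESeq2 called 6, 5 and 5 in these 3 pairs. Itgb2 was higher in AM-LCs in both of its pairs, and Itga6, Itgb5 and Itgav were lower. Among MG-, KC- and PM-LCs 0 of 30 comparisons passed in edgeR's quasi-likelihood test, where 0% (MG-LCs against KC-LCs), 0.0743% (MG-LCs against PM-LCs) and 0.108% (KC-LCs against PM-LCs) of all genes did. At an unadjusted p under 0.05 there were 4, with limma-voom 0 and with DESeq2 2, namely Itgb2 (MG-LCs against PM-LCs) and Itgb7 (KC-LCs against PM-LCs). The total of 9 depended on single libraries. It was 0 without AM-LC library 2, 1 without AM-LC library 1, 3 without KC-LC library 3, 5 without KC-LC library 1, KC-LC library 2 or PM-LC library 1, and 12 without MG-LC library 1. Without MG-LC library 1, PM-LC library 2 and AM-LC library 3, the 3 with most fibroblast and mesothelium RNA, it was 13. The shares of all genes above are those of the test that gave the 9 calls. None is given here for the unadjusted p, DESeq2, the model of all 24 libraries or the left-out libraries. Counts from those settings cannot be read as particular to the subunits.

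All 10 subunits had a smaller range over the cultured than over the sorted populations, taken as the highest minus the lowest group mean of log2 CPM. This held for 75.8% of all 17408 genes. The median range of the subunits was 8.22 in sorted and 1.97 in cultured cells, beside 1.83 and 1.03 for all genes. On the CPM scale, the highest mean exceeded the lowest 1066-fold for Itgam in sorted cells and 1.61-fold in culture, and 570-fold and 2.57-fold for Itgb5. Itga4 went from 238-fold to 2.01-fold and Itga6 from 261-fold to 7.59-fold. Itgb2 changed least in this respect, from 5.38-fold to 3.69-fold. The libraries of 1 group differed more in culture, with a median SD of 0.54 in log2 CPM for the subunits against 0.24 in sorted cells, and 0.45 against 0.28 for all genes.

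**Figure D3:**
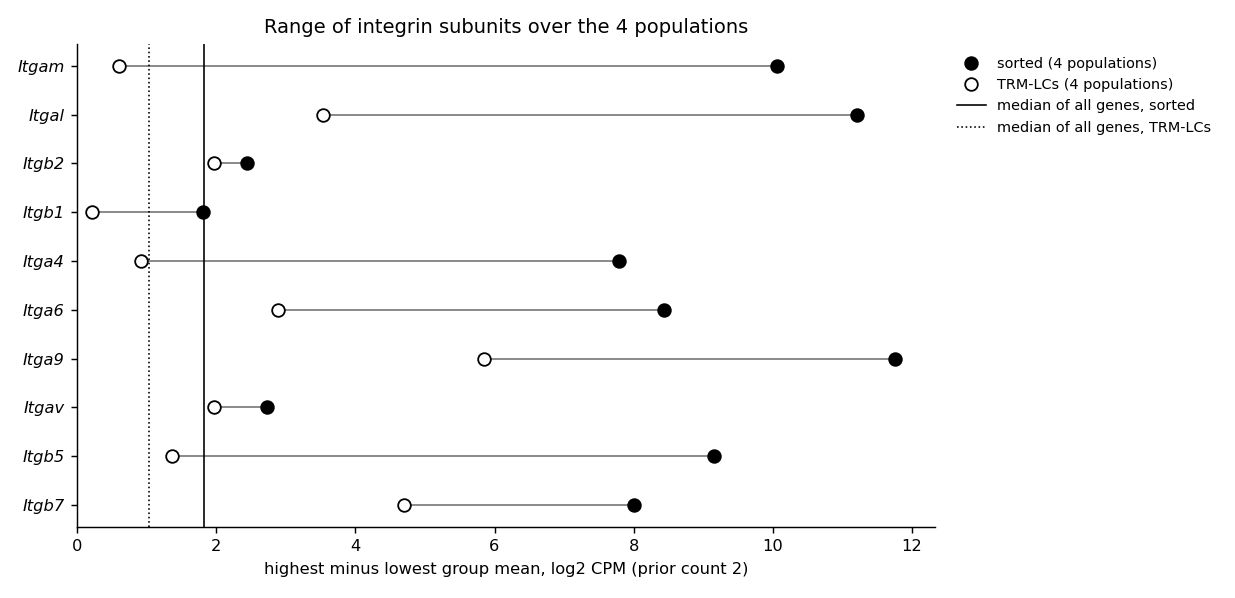
Highest minus lowest group mean in log2 CPM (x axis) over the 4 sorted (filled) and the 4 cultured (open) populations for each subunit (y axis), with lines at the median of all genes (1.83 sorted, 1.03 cultured). Every open point lies to the left of its filled point, and those of Itgam, Itgb1 and Itga4 lie under the median of all genes in culture.

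To compare genes with each other, CPM were divided by exon length, and each α gene was expressed as a share of all 18 α subunit genes and each β gene of all 9 β subunit genes in the library. In sorted MG and PM, Itgam made up 74.8% ± 0.2 and 78.5% ± 1.7 of the α subunit mRNA (SD, n = 3), followed by Itga6 with 12.0% and 18.1%. KC were led by Itgal with 45.8% ± 7.9 and Itga9 with 23.9% ± 6.8, and Itgam made up 5.7% ± 2.1. AM were led by the Itgax gene with 58.5% ± 1.1, which is not among the 10, and by Itgal with 26.8% ± 0.55, with Itgam at 0.21% ± 0.07. In culture Itgam had the largest mean share in MG-LCs (57.3% ± 15.9), KC-LCs (52.2% ± 1.75) and PM-LCs (36.8% ± 8.13), and it reached 24.5% ± 6.9 in AM-LCs behind Itgax at 61.2% ± 8.9. In PM-LCs Itgax was at 291 to 521 CPM, beside 329, 351 and 988 CPM of Itgam in libraries 1, 2 and 3. In MG-LC library 1, Itga5 at 40.9% stood above Itgam at 39.2%. With the longest transcript as length, Itga6 came to 20.6% and 29.9% of the α mRNA in MG and PM.

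For the β genes, Itgb5 made up 70.1% ± 0.8 in MG and Itgb2 19.2% ± 0.6. In KC, Itgb5 (38.3% ± 4.35), Itgb2 (30.2% ± 4.1) and Itgb1 (22.3% ± 5.9) lay nearer to each other. PM held 60.7% ± 1.7 Itgb2 and 30.4% ± 1.4 Itgb1 with 0.11% ± 0.02 Itgb5, and AM 76.1% ± 0.7 Itgb2. Among the cultures Itgb2 had the largest mean share throughout, from 38.2% ± 9.83 in MG-LCs, where Itgb1 was level with it at 37.9% ± 9.8, to 73.1% ± 4.7 in AM-LCs. Itgb5 lay between 5.1% ± 1.0 in AM-LCs and 21.4% ± 4.8 in KC-LCs. In MG-LC library 1, Itgb1 (49.2%) stood above Itgb2 (27.2%).

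**Figure D4:**
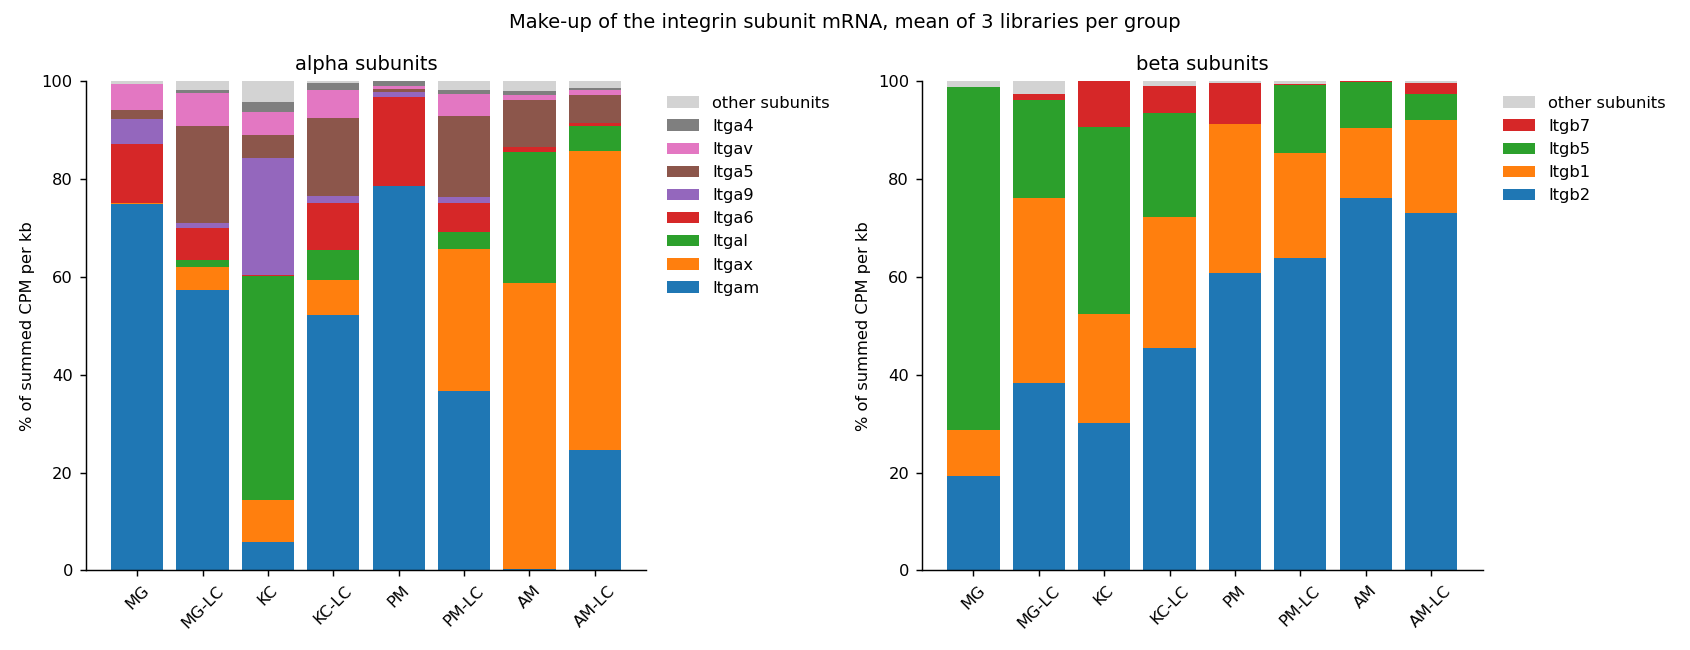
Share of each gene in the summed CPM per kb of all 18 α subunit genes (left) and all 9 β subunit genes (right), in % on the y axis, as means of 3 libraries for the 8 groups on the x axis. Itgam makes up 0.21% to 78.5% of the α mRNA in sorted groups and 24.5% to 57.3% in cultured ones, and Itgb5 0.11% to 70.1% and 5.1% to 21.4% of the β mRNA.

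Of the 17 other integrin subunit genes, 9, 8, 9 and 9 were tested in MG, KC, PM and AM. Of these 1, 2, 1 and 1 were higher in sorted cells, beside 21.2%, 19.4%, 12.1% and 22.9% of all genes, and 3, 2, 4 and 5 in cultured cells, beside 25.2%, 14.4%, 16.8% and 25.9%. Their median log2 difference was -2.34, 0.94, -2.71 and -0.50, beside -0.03, 0.01, -0.01 and -0.04 for all genes. Itga5, the main fibronectin receptor chain, was higher in MG-LCs (-2.52 ± 0.48 SE), KC-LCs (-1.26 ± 0.24 SE) and PM-LCs (-2.71 ± 0.19 SE) than in the sorted cells. Itgax, another partner of β2, rose from 0.175 ± 0.274 CPM in PM to 382 ± 122 CPM in PM-LCs (SD, n = 3), and by a small step in AM-LCs (-0.50 ± 0.17 SE). Itgb3, the β chain of a further αv integrin, had no read in AM and a mean of 24.8 CPM in AM-LCs (16.2 to 34.9 CPM). This mean was at least 309-fold above a floor of 3 reads per library. Itgb3 was also higher in KC-LCs than in KC (-7.48 ± 1.31 SE). Itgae, a partner of β7, was higher in KC than in KC-LCs, but its 97.9, 6.52 and 17.9 CPM in KC put most of it in KC library 1, the library with the most T and NK cell marker RNA; the part of those cells in it was not tested. Itgad, another β2 partner, was at 27.5 ± 2.1 CPM in AM and 0.730 CPM in AM-LCs.

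Among 33 genes of integrin activation and linkage to the cytoskeleton, 30, 28, 30 and 29 were tested in MG, KC, PM and AM. In KC 14 were higher in sorted and 3 in cultured cells, in MG 10 and 8, in PM 9 and 5 and in AM 12 and 9, beside 19.4% and 14.4%, 21.2% and 25.2%, 12.1% and 16.8%, and 22.9% and 25.9% of all genes in the same directions. Their median log2 difference was 0.83 in KC, 0.09 in MG, 0.28 in PM and 0.35 in AM, beside 0.01, -0.03, -0.01 and -0.04 for all genes. In KC, all 8 B cell and all 8 T and NK cell markers were also higher in sorted cells. Their sums were 94.3 to 134 CPM and 18.9 to 229 CPM in KC, against at most 1.12 and 2.27 CPM in KC-LCs, where each library had reads for 1 or 2 of the 8 markers of a list. The part of these cells in the KC values was not tested. Rasgrp2, the exchange factor that turns on the integrin switch Rap1, was at 139 CPM in KC and 0.251 CPM in KC-LCs (123, 165 and 128 CPM in KC libraries 1, 2 and 3) and at 102 CPM in PM and 5.09 CPM in PM-LCs. The Src family kinase gene Fgr was higher in sorted KC (6.08 ± 0.25 SE), PM (4.91 ± 0.55 SE) and AM (2.58 ± 0.25 SE). Rassf5, a Rap1 effector, was higher in sorted MG (2.35 ± 0.48 SE) and AM (2.59 ± 0.18 SE), Apbb1ip (RIAM), another, in AM (1.80 ± 0.21 SE), and Tln2, which encodes talin 2, in MG (2.71 ± 0.69 SE) and PM (4.55 ± 0.52 SE). Zyx, encoding zyxin of focal adhesions, was higher in KC (2.55 ± 0.28 SE).

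In the other direction, Ptk2 (focal adhesion kinase) and Vcl (vinculin) were higher in MG-LCs (-2.88 ± 0.54 SE and -1.91 ± 0.49 SE) and in AM-LCs (-4.58 ± 0.43 SE and -3.53 ± 0.40 SE). Both genes were highest in MG-LC library 1 and AM-LC library 3, where the fibroblast and mesothelium sum of each group was also highest. Ptk2 was at 53.4, 25.2 and 13.9 CPM in MG-LCs and 35.4, 47.8 and 64.7 CPM in AM-LCs, and Vcl at 72.2, 31.1 and 21.03 CPM and 32.5, 26.6 and 50.4 CPM. All 4 fibroblast and mesothelium markers tested in MG and all 5 in AM were higher in culture, as were 7 of 8 in PM, and the 3 tested in KC missed the threshold. Their part in the values of these genes was not tested. Itgb1bp1, which binds the β1 tail, was higher in KC-LCs (-1.72 ± 0.28 SE) and AM-LCs (-1.73 ± 0.13 SE), and the adaptor Skap2 in KC-LCs (-0.92 ± 0.23 SE) and PM-LCs (-0.96 ± 0.15 SE). The adaptor Lims1 (PINCH) was higher in KC-LCs (-1.16 ± 0.20 SE) and the kinase Ptk2b (Pyk2) in PM-LCs (-1.37 ± 0.20 SE). Parvg, a parvin of leukocytes, went opposite ways, from 300.5 CPM (MG) to 50.8 CPM (cultured) but from 0.692 CPM (PM) to 28.6 CPM (cultured). Fermt2, a kindlin of adherent cells, had 2 reads over the 3 MG libraries and 35.8 CPM in MG-LCs (0.498 to 94.96 CPM). The part of the fibroblast marker RNA of MG-LC library 1 in Fermt2 was not tested.

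Of 25 genes for integrin ligands, 17, 19, 15 and 17 were tested in MG, KC, PM and AM, with 2, 7, 4 and 2 higher in sorted and 10, 5, 7 and 6 higher in cultured cells. The share of all genes was 21.2%, 19.4%, 12.1% and 22.9% in the first direction and 25.2%, 14.4%, 16.8% and 25.9% in the second. The median log2 difference of the ligand genes was -4.94, 0.37, -0.92 and -0.04, beside -0.03, 0.01, -0.01 and -0.04 for all genes. Icam1, a ligand of LFA-1 and Mac-1, was higher in sorted MG (1.28 ± 0.25 SE), KC (1.71 ± 0.28 SE) and AM (0.64 ± 0.14 SE), and Icam2 in PM (4.45 ± 0.22 SE). Vcam1, the ligand of α4β1, was at 681 CPM in KC and 0.672 CPM in KC-LCs. It was at 0.542 CPM in AM and 80.8 CPM in AM-LCs (1.11 to 234 CPM). KC libraries 1, 2 and 3 held 286, 809 and 949 CPM of Vcam1. The sum of 8 endothelial markers ran the same way, with 422, 727 and 839 CPM in KC against 37.9 to 86.9 CPM in KC-LCs. Of 6 endothelial markers tested, 4 were higher in KC and 1 in KC-LCs. The sum of 6 Kupffer cell markers also ran this way, with 15969, 27316 and 28251 CPM against 17.3 to 94.1 CPM. The part of either cell type in Vcam1 was not tested. Fn1, fibronectin, was at 17951 CPM in PM and 489 CPM in PM-LCs but rose from 0.108 CPM in MG to 629 CPM in MG-LCs (5.50 to 1647 CPM). Thbs1, thrombospondin, followed PM in this (4697 and 309 CPM) and was higher in KC-LCs (-4.18 ± 0.87 SE) and AM-LCs (-8.19 ± 1.87 SE). Its libraries spread widely, from 9.51 to 136 CPM in KC-LCs and from 3.09 to 140 CPM in AM-LCs. Spp1, osteopontin, a ligand of αv and α9, was at 11420 CPM in MG-LCs, 4484 CPM in KC-LCs and 3751 CPM in PM-LCs, against 4.10, 433 and 7.62 CPM in the sorted cells.

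Mfge8, the αvβ5 ligand that bridges to apoptotic cells, was at 7662 CPM in AM-LCs and 23.5 CPM in AM. F11r (JAM-A), a ligand of LFA-1, fell from 931 CPM (MG) to 30.5 CPM (MG-LCs) and was higher in AM (1.71 ± 0.22 SE). In PM it had 2 reads over 3 libraries, and in PM-LCs it was at 23.0 CPM (2.10 to 56.6 CPM). Adam15, whose disintegrin domain binds integrins, was higher in KC-LCs (-4.32 ± 0.53 SE). Tnc, tenascin C, a ligand of α9, had no read in MG or PM. Its mean was 173 CPM in MG-LCs (2.24 to 475 CPM over the libraries) and 22.7 CPM in PM-LCs (0.969 to 52.4 CPM). These means were at least 2369-fold and 258-fold above a floor of 3 reads per library, which does not hold for the lowest libraries. Fga, fibrinogen α, a hepatocyte product, was at 18.4 CPM in KC and had no read in KC-LCs. The KC mean was at least 249-fold above a floor of 3 reads per library. The summed level of 8 hepatocyte markers was 89.2 to 222 CPM in KC and 0.0748 CPM or less in KC-LCs. In sorted AM, from lung, that sum was 469 to 539 CPM. The part of hepatocytes in Fga was not tested. Fibroblasts also make Tnc and Fn1, and the part of the fibroblast marker RNA in their levels and in Vcam1 of AM-LCs was not tested. Nor was its part in Thbs1 of the cultures.

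Among 6829 genes with a mean log2 CPM above 4, those whose log2 CPM over the 24 libraries was most like each subunit are given as a description, with no test, since the libraries share groups and culture. For Itgb5 they were Rab3il1 (Pearson r = 0.96) and Skil (0.94), for Itga9 Rcsd1 (0.95) and Lrrc25 (0.93) and for Itga4 Iqgap2 (0.94) and Cfp (0.94). Itgam had Abi2 (0.93) and Anxa3 (0.91), Itgal Acp5 (0.93) and Nr1h3 (0.92), Itga6 Rab11fip5 (0.93) and Adam15 (0.92), and Itgb1 Rfk (0.91) and Pdha1 (0.87). Itgb2 had Ywhaz (0.90) and Dnajb9 (0.86), Itgav Plscr3 (0.87) and Plxnb2 (0.87), and Itgb7 Arhgap15 (0.83) and Dmac1 (0.82). Between the subunits themselves the highest coefficients were 0.67 for Itgam with Itga6 and 0.65 for Itga4 with Itgb7, and the lowest -0.76 for Itgal with Itga6, -0.75 for Itgb1 with Itgb5 and -0.71 for Itgam with Itgal.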

How the data were processed

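RNA sequencing of sorted TRMs and cultured TRM-LCs (8 groups of 3 libraries) was used as deposited raw counts of reads per gene. The authors prepared unstranded SMARTer and Nextera XT libraries, trimmed single reads with Trimmomatic and aligned and counted them with STAR on mm10. The submitters' processing notes name Trimmomatic 0.36, STAR 2.5.2b and a human build, whereas the identifiers are mouse Ensembl genes. Symbols, coordinates and exon lengths came from GENCODE M21 (GRCm38), matched for 45143 of 45706 identifiers. Promoter windows came from RefSeq (GRCm38.p6) for 7 of the 10 members.

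Counts were tested in R 4.3.3 with edgeR 4.0.16 (quasi-likelihood, two-sided, TMM, filterByExpr with a minimum count of 10, Benjamini-Hochberg over all genes of a contrast, threshold 0.05), with limma 3.58.1 (voom) and DESeq2 1.42.0 as alternatives, and checked on simulated data. All 10 members passed the filter in every fit. Log2 CPM used a prior count of 2. Values after ± are SE of a log2 difference or SD of a level. Replicates differed beyond sampling noise in every group. Same-numbered sorted and cultured libraries did not deviate together (correlations -0.104 to 0.056), so numbers were not treated as pairs. The members and lists were chosen with earlier results of these data known. Besides the members, up to 3 genes per list, population and direction were named, taking from the called genes without overlap and over 3 in mean log2 CPM those that changed most, and the 2 genes most like each member. Genes of marker lists are given as sums.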

Additional observations from a re-analysis of the deposited data

Results flagged for a closer look

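The change between sorted and cultured cells differed between 1 population and the mean of the other 3, by the interaction test over 24 libraries, for 25 of 40 combinations of subunit and population. The values below are log2 differences (sorted minus cultured) in the population named, minus the mean of that difference in the other 3. A large change in 1 population thus moves all 4 contrasts. The 4 contrasts share their libraries.

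In MG the contrast was 3.41 for Itgam and 4.52 for Itgb5, and -7.09 for Itgal, -0.94 for Itgb1, -6.73 for Itga4 and -4.55 for Itgb7. In KC it was 5.87 for Itgal, 4.30 for Itga9 and 1.46 for Itgb5, and -1.55 for Itgam, -1.12 for Itgb2 and -6.55 for Itga6. In PM it was 5.74 for Itgam, 1.61 for Itgb1, 3.20 for Itga4, 4.20 for Itga6 and 8.64 for Itgb7, and -2.91 for Itgal, -1.47 for Itgav and -7.93 for Itgb5. In AM it was 4.13 for Itgal and 1.95 for Itgb5, and -7.59 for Itgam, -6.10 for Itga9 and -5.08 for Itgb7.

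Of 31 alternatives, Itgb1 in MG passed in 11, Itgam in KC in 18, Itgav in PM in 9, Itgal in PM in 26, and Itgb2 in KC and Itga9 in AM in 29. Itgb7 in MG passed in 30. The other 18 passed in all 31. Itga9 in AM rests on 15 reads over the 3 sorted libraries. Size factors of the RLE method moved the median of all genes in the KC contrast by 0.12 (0.16 with TMM, 0.28 with RLE).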

How the results depend on the processing

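Member counts stayed within 1.5 times the reported ones under limma-voom, RLE size factors, other filters on low counts and the replicate block. Requiring in addition a log2 fold change above 1.5 left 5 members in PM, 3 in AM and 5 cultured comparisons. The cultured count was 18 with DESeq2 and 18 with all 24 libraries in 1 model. Leaving out 1 library at a time gave 2 to 10 members in MG and 0 to 12 cultured comparisons, 4 to 5 in KC, 6 to 10 in PM, 5 to 6 in AM, 50 to 57 between sorted populations and 21 to 27 interaction contrasts. Without the 3 cultured libraries richest in fibroblast RNA, a choice made after seeing the data, the cultured count was 13 and the interaction count 26. With the replicate number as a block the counts were 4 in MG, 5 in KC, 6 in PM, 5 in AM, 52 between sorted and 9 between cultured populations and 23 interaction contrasts, against 6, 5, 8, 6, 53, 9 and 25. Shares of all genes are not set beside these alternative counts, which describe the fits only.

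Directions reversed for uncalled differences, each without 1 library. Itgb2 ranged from -0.47 to 0.15 in MG (reversed without MG-LC library 2) and from -0.18 to 0.077 in AM (AM-LC library 2), Itgav in KC from -0.19 (KC library 2) to 0.56, also -0.17 (KC-LC library 2), and Itgb7 in KC from -0.17 (KC library 1) to 0.53, also -0.0184 (KC-LC library 3). The cause was not tested. With the longest transcript as gene length, 56 of 216 shares moved by more than their SD. Depth limits Itga9 in AM and AM-LCs, where libraries held 0 to 89 reads.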
